A study of Mus musculus with 15 samples.

Results

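Of the 20049 autosomal H3K9ac peaks of EL4 cells, 654 (3.26%) shared no base pair with an H3K27ac peak. These H3K27ac-lacking peaks were selected on the measured peak positions of both marks, with the intervals of both replicates merged, so having H3K9ac and lacking H3K27ac define them and are not results. EL4 is a mouse T lymphocyte lymphoma line of C57BL/6N background. All libraries came from this 1 line, grown without a drug or a genetic change named in the labels, and the methods call the replicates technical. ChIP-seq for H3K9ac, H3K27ac, H3K4me3, H3K36me2 and H3K27me3 and ATAC-seq gave 2 peak lists each. The lists hold positions without scores or read counts, so the depth behind a peak is unknown and a missing peak means only that none was called. At the ends of 23 genes of the T lineage (such as Cd3e, Lck and Tcf7), H3K9ac peaks were found for 17, against 2 of 10 B lineage and 3 of 10 myeloid genes. Over all autosomal protein-coding genes, 9906 of 20661 had an H3K9ac peak at an end.

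H3K9ac is written mainly by the acetyltransferases Kat2a and Kat2b, and H3K27ac by Ep300 and Crebbp. Both marks are common at active promoters, and H3K27ac is also widely used to map distal enhancers. Lysine 27 cannot carry an acetyl and a methyl group at the same time, and its trimethylation, H3K27me3, is the product of the Polycomb complex PRC2. H3K4me3 marks gene starts, above all those rich in CpG dinucleotides, ATAC-seq peaks mark accessible DNA, and H3K36me2 covers broad stretches of genes and of the DNA between them.

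The start sites covered by H3K27ac-lacking peaks give a view of the DNA beneath them. The windows below run from 250 bases before to 50 bases after an annotated start (RefSeq, GRCm38.p6) and are printed 5′ to 3′ on the strand of the gene, with CpG dinucleotides in capitals. Mcf2l, a guanine nucleotide exchange factor, and Lgi1, a secreted protein of neurons, had the widest peaks of both H3K9ac replicates at a start. Nipal1, a magnesium transporter, Igsf11, an adhesion molecule, and Gng7, a G protein subunit, had starts with H3K4me3 and ATAC-seq peaks in both replicates. Lhx2, a homeodomain transcription factor of forebrain development, is shown because H3K27me3 covered its peak in both replicates and was chosen after its values were seen.
Mcf2l, chr8:12873556-12873855, plus strand: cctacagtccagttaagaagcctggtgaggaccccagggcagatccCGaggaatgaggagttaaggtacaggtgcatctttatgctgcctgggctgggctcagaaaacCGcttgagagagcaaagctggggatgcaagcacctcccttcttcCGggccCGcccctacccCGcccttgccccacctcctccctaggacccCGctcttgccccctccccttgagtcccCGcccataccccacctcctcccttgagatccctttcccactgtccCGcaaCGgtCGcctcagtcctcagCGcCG
Lgi1, chr19:38264437-38264736, plus strand: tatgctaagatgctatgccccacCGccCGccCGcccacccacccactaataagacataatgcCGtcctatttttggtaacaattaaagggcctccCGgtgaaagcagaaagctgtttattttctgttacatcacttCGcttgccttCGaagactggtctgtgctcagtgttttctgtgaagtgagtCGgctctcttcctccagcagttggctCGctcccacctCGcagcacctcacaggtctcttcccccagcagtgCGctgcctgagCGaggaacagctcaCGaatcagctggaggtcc
Nipal1, chr5:72647546-72647845, plus strand: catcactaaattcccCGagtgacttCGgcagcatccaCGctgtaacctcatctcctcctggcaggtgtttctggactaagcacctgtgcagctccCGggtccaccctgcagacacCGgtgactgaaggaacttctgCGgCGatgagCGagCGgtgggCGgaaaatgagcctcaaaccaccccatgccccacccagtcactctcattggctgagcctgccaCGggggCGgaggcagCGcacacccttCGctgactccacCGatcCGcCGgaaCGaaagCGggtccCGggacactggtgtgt
Igsf11, chr16:38902095-38902394, plus strand: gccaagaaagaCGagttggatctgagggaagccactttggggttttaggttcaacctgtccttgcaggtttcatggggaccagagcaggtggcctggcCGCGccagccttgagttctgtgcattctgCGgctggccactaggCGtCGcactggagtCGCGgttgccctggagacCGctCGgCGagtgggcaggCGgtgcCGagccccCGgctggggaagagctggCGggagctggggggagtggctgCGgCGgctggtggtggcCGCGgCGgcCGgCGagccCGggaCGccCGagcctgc
Gng7, chr10:81014876-81015175, minus strand: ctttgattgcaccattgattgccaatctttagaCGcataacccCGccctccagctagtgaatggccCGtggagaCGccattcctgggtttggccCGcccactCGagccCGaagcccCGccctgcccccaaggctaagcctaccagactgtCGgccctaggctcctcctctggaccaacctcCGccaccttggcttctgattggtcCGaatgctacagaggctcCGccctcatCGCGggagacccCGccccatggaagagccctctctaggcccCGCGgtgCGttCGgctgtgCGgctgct
Lhx2, chr2:38339031-38339330, plus strand: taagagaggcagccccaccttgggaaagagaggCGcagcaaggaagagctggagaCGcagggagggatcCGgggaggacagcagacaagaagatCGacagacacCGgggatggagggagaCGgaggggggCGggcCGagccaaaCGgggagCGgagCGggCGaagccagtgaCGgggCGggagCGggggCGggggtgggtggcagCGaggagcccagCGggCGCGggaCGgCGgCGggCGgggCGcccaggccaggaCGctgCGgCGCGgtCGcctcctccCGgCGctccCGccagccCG
The peaks overlapped 300 of the 300 bases shown for Mcf2l and Nipal1, 205 for Lgi1, 149 for Igsf11, 95 for Lhx2 and 76 for Gng7. The number of CpG dinucleotides was 12 in the window of Mcf2l, 13 in Lgi1, 20 in Nipal1, 20 in Gng7, 25 in Igsf11 and 34 in Lhx2, the highest number among windows whose start lay in such a peak.

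Over all 35 windows whose start lay in an H3K27ac-lacking peak, which belong to 34 genes, the median was 20 CpG dinucleotides (range 1 to 34) and the median GC content 63.3%. Windows whose start lay in another H3K9ac peak had a median of 23 CpG dinucleotides and 62.0% GC. Windows with a start outside H3K9ac peaks had medians of 4 and 49.3%, and all 31396 autosomal windows had medians of 7 and 53.0%. The ratio of observed to expected CpG was above 0.6 in 22 of the 35 windows (62.9%), in 79.3% of those in other H3K9ac peaks and in 16.7% of those outside H3K9ac peaks. By their medians, the CpG number and ratio at starts in H3K27ac-lacking peaks were between those of the other groups and nearer to the H3K9ac peaks with H3K27ac, and the GC content was the highest of the groups. Single windows had as few as 1 CpG dinucleotide and 42% GC.

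The H3K27ac-lacking peaks were narrow. Their median width was 251 bp (quartiles 216 and 328 bp, range 200 to 1465 bp), against 1066 bp for the 19395 H3K9ac peaks with H3K27ac (quartiles 497 and 1716 bp). The shortest interval in the H3K9ac lists is 200 bp, and 82 of the 654 peaks had exactly this width. Peaks under 300 bp made up 69.3% of them (453 peaks) and 11.0% of the other H3K9ac peaks, and 2 were at least 1000 bp wide. A wide peak has more room to touch an H3K27ac peak, so width belongs to what the selection acted on and was not tested.

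**Figure D1:**
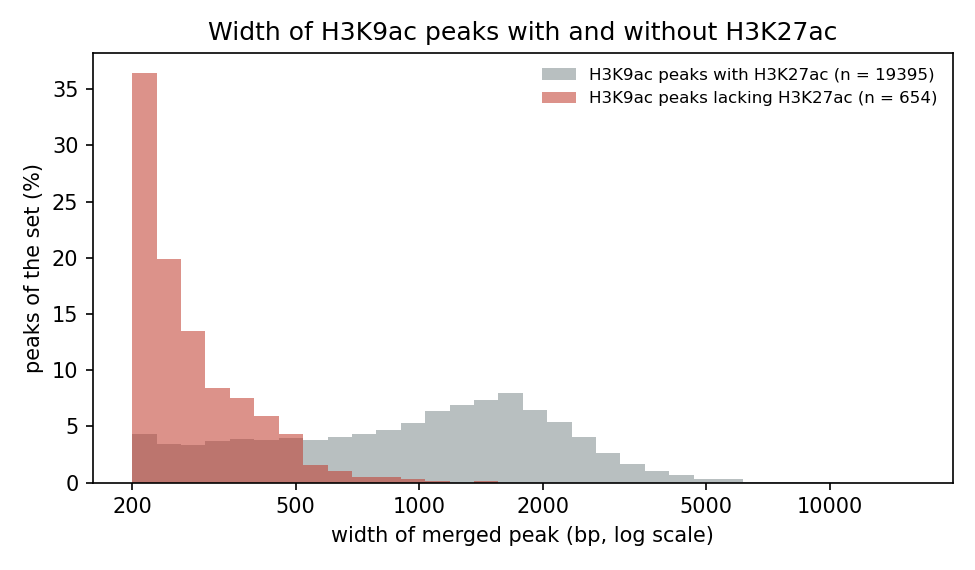
Width of merged autosomal H3K9ac peaks on a log axis (bp) against the percent of peaks of each set, for 654 peaks lacking H3K27ac (red) and 19395 with it (grey). The red peaks crowd at the lower limit of 200 bp with a median of 251 bp, and the grey peaks have a median of 1066 bp.

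Intervals of both H3K9ac replicates touched 201 of the 654 peaks (30.7%), 229 came from replicate 1 alone and 224 from replicate 2 alone. Over all autosomal H3K9ac peaks, 86.3% were touched by both replicates, and among those with H3K27ac 88.2% were. Width and replicate support went together. Of the H3K27ac-lacking peaks under 300 bp, 13.2% were touched by both replicates, of those from 300 to under 500 bp 67.5%, and of those from 500 to under 1000 bp 83.3%. In the same classes, 21.4, 80.2 and 98.5% of the other H3K9ac peaks were. The 201 peaks found in both replicates had a median width of 362 bp, and values for them are given beside the main ones below.

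With the lists of 1 replicate in place of the merged peaks, 699 of 19805 H3K9ac intervals of replicate 1 (3.53%) lacked H3K27ac of replicate 1, and 666 of 19803 of replicate 2 (3.36%) lacked H3K27ac of replicate 2. Across the 19 autosomes, the share of H3K9ac peaks lacking H3K27ac ran from 2.34% on chromosome 15 to 4.44% on chromosome 16, with a median of 3.21%. Within 2 kb of each other, the 654 peaks formed 615 runs, of which 32 held more than 1 peak and the largest held 4. They were thus spread over the genome and rarely followed each other.

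H3K4me3 was found at most H3K27ac-lacking peaks. Of the 654, 566 (86.5%, exact 95% interval 83.7 to 89.1%) touched an H3K4me3 peak, beside 87.8% of all autosomal H3K9ac peaks and 87.8% of those with H3K27ac. The list of H3K4me3 replicate 1 was touched by 557 of them and that of replicate 2 by 545, and 536 were touched by both. When each replicate was taken by itself, 88.4% ± 0.189 (SD, n = 2) of the H3K27ac-lacking intervals touched H3K4me3 against 88.5% ± 0.719 (SD, n = 2) of the others, a difference below the spread between replicates (exact permutation test over the replicate values, two-sided, p = 1). Of the 201 peaks in both H3K9ac replicates, 189 (94.0%) touched H3K4me3, and of the other H3K9ac peaks in both replicates 92.9% did. Intervals here treat peaks as independent and cover counting error only.

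Within classes of peak width, the shares of H3K4me3 differed below 500 bp. In windows of 200 bp at the midpoint of each peak they were close. There, 86.5% of the H3K27ac-lacking peaks and 87.2% of the others touched H3K4me3. Among peaks under 300 bp, 84.3% of the H3K27ac-lacking peaks and 50.2% of the other H3K9ac peaks touched H3K4me3. From 300 to under 500 bp the shares were 93.3 and 72.9%, and from 500 to under 1000 bp, with 36 H3K27ac-lacking peaks, they were 86.1 and 88.9%. Weighted to the widths of the H3K27ac-lacking peaks, the other H3K9ac peaks had a share of 58.2%. H3K4me3 peaks covered 85.1% of the bases in H3K27ac-lacking peaks and 92.0% of those in the other H3K9ac peaks.

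The H3K4me3 peak in which an H3K27ac-lacking peak lay came in 2 kinds, a split made after the data were seen. For 308 peaks (termed flank peaks here), the H3K4me3 peak also touched an H3K27ac peak elsewhere along its length. For 258 peaks (termed stand-alone peaks), the H3K4me3 peak touched no H3K27ac, and 88 peaks lay outside H3K4me3. The flank peaks lay in 289 H3K4me3 peaks of 2655 bp median width, against 1519 bp for all 16264 autosomal H3K4me3 peaks with H3K27ac. Of the 308 flank peaks, 248 (80.5%) had their midpoint in the outer 25% of the H3K4me3 peak's length at either side. The stand-alone peaks lay in narrower H3K4me3 peaks with a median of 653.5 bp, and 31 of 258 (12.0%) had their midpoint in the outer 25%. The distance from midpoint to the nearer edge was close in both kinds, with medians of 288.5 bp for flank peaks and 244.0 bp for stand-alone peaks. The share in the outer 25% depends on the width of the H3K4me3 peak and, for flank peaks, on the selection, and was not tested. Of the 1667 autosomal H3K4me3 peaks without H3K27ac, 256 (15.4%) touched an H3K9ac peak, and these had a median width of 619.5 bp against 354.0 bp for those that touched none.

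The gap to the nearest H3K27ac peak, which follows in part from the selection, ran from 1 bp to 3547274 bp with a median of 517.5 bp. It was at most 1 kb for 382 peaks (58.4%) and more than 10 kb for 180 (27.5%). Flank peaks had a median gap of 201.5 bp and none above 2195 bp, which the definition of the group favours. Stand-alone peaks had a median of 14281 bp, and 152 of 258 (58.9%) were more than 10 kb away. A further 45 (17.4%) had a gap of at most 1 kb, with a minimum of 58 bp. The name therefore refers to the H3K4me3 peak and not to distance from H3K27ac. Peaks outside H3K4me3 had a median of 2307 bp.

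**Figure D2:**
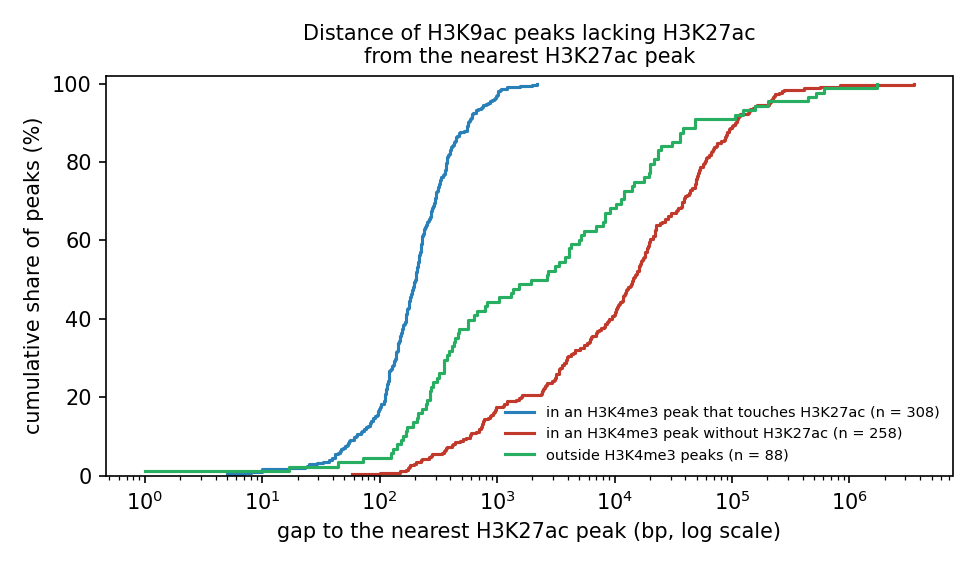
Cumulative share (%) of H3K9ac peaks lacking H3K27ac against the gap in bp to the nearest H3K27ac peak (log axis), split by the H3K4me3 peak they lie in. The 308 peaks in H3K4me3 peaks that touch H3K27ac (blue) rise early with a median of 201.5 bp, and the 258 in H3K4me3 peaks without H3K27ac (red) have a median of 14281 bp.

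The limit of 1 shared base separates peaks that hardly differ. The 3 H3K27ac-lacking peaks nearest to H3K27ac had gaps of 1, 5 and 7 bp and widths of 203, 227 and 222 bp. They lay 5578 bp from Pdik1l, 95 bp from Btg1, an antiproliferative gene, and in Map3k5, a stress kinase gene. On the other side, the peaks in Slc35b4, Naf1 and Eif4enif1 shared 3, 3 and 4 bp with H3K27ac and had widths of 234, 258 and 201 bp. All 6 of these peaks came from a single H3K9ac replicate.

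Of the peaks in both H3K9ac replicates, the 5 farthest from H3K27ac were more than 200 kb away from it. The farthest, on chromosome 18 had a gap of 439610 bp and touched no peak of any other mark, and its nearest annotated gene, the pseudogene Gm19062, was 149028 bp away. The next, in Slc25a27, a mitochondrial carrier gene, had a gap of 411652 bp, and H3K4me3 covered all of its 250 bp in both replicates. The peaks at Nrep (249267 bp), Spon1, which encodes the matrix protein spondin 1 (232977 bp), and Ear10, an eosinophil ribonuclease gene (227031 bp), were also within H3K4me3 peaks of both replicates. Of these 5, only the peaks at Slc25a27 (150 and 3 bp), Nrep and Spon1 touched ATAC-seq intervals of both replicates.

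Fewer H3K27ac-lacking peaks were at accessible sites. ATAC-seq peaks were touched by 130 of 654 (19.9%, exact 95% interval 16.9 to 23.1%), beside 70.2% of all autosomal H3K9ac peaks and 71.9% of those with H3K27ac. ATAC-seq replicate 1 gave 96 peaks (14.7%), replicate 2 gave 115 (17.6%), and 81 touched both. The replicates taken by themselves gave 16.5% ± 1.91 against 68.0% ± 2.44 for the others (SD, n = 2), a difference of -51.5 percentage points that was larger than the spread between replicates (exact permutation test over the replicate values, two-sided, p = 0.333, the smallest that 2 against 2 values allow). Of the peaks in both H3K9ac replicates, 25.4% touched ATAC-seq against 77.7% of the other H3K9ac peaks in both.

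The shares of ATAC-seq were also apart within width classes. They were 18.1 and 30.8% under 300 bp, 23.3 and 43.6% from 300 to under 500 bp, and 25 and 63.7% from 500 to under 1000 bp, each for H3K27ac-lacking peaks and for the others. Weighted to the same widths, the other peaks had 35.97%. By bases, 11.2% of the sequence in H3K27ac-lacking peaks was in ATAC-seq peaks against 34.1%. Among the kinds of peak, 25.6% of the stand-alone peaks, 17.2% of the flank peaks and 12.5% of the peaks outside H3K4me3 touched ATAC-seq.

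**Figure D3:**
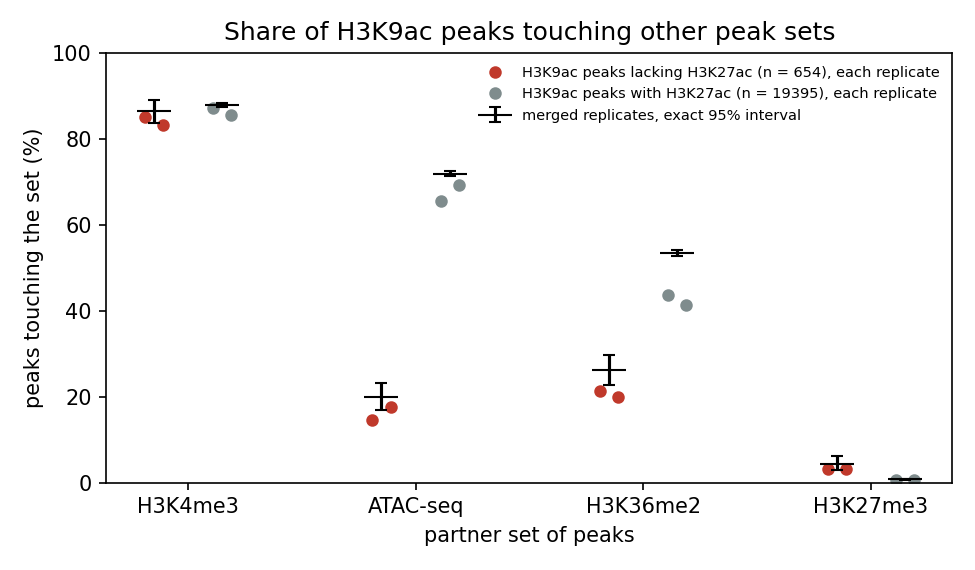
Percent of autosomal H3K9ac peaks touching each other peak set, for peaks lacking H3K27ac (red) and with it (grey). Points are the single replicates of the partner set, and black bars are the merged replicates with exact 95% intervals. The sets lie together for H3K4me3 (86.5 and 87.8%) and apart for ATAC-seq (19.9 and 71.9%) and H3K36me2 (26.1 and 53.5%).

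In 29 cases, H3K4me3 and ATAC-seq, each in both replicates, coincided with an H3K27ac-lacking peak of both H3K9ac replicates. Of these, 21 were stand-alone and 8 were flank peaks. The widest, 793 bp on chromosome 3 (chr3:146328175-146328967), lay 17466 bp from the nearest gene, Gm40167, a long non-coding RNA, and 75106 bp from H3K27ac. H3K9ac intervals covered 705 and 719 bp of it in replicates 1 and 2, H3K4me3 all of it in both, and ATAC-seq 254 and 233 bp. At the start of Gng7, H3K9ac covered 355 and 368 of 391 bp (chr10:81014561-81014951), H3K4me3 all of it in both replicates and ATAC-seq 128 and 170 bp. The peak at Nipal1 (468 bp, chr5:72647519-72647986) was covered by H3K9ac over 223 and 459 bp and by ATAC-seq over 360 and 293 bp, and H3K36me2 of replicate 1 alone also covered it. H3K9ac and H3K36me2 thus differed between their replicates there, and H3K4me3 covered all of the peak in both. The remaining peaks of the 10 widest were at Nrep, Igsf11, Cep112, Mical3, Gm28863, Zfand5 and Frmd5, with widths from 384 to 573 bp. Those at Cep112, Gm28863, Zfand5 and Frmd5 were flank peaks 114 to 294 bp from H3K27ac.

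H3K36me2 was also less frequent at H3K27ac-lacking peaks. It was touched by 171 of 654 H3K27ac-lacking peaks (26.1%, exact 95% interval 22.8 to 29.7%), beside 52.6% of all autosomal H3K9ac peaks and 53.5% of those with H3K27ac. Its replicates 1 and 2 gave 139 (21.3%) and 131 (20.03%). Where only bases covered in both replicates of each mark were kept, the selection was made anew and gave 680 H3K27ac-lacking stretches. Of these, 9.41% touched H3K36me2, against 28.3% of the other H3K9ac stretches. Taken by replicate, the shares were 20.4% ± 1.89 and 41.2% ± 1.92 (SD, n = 2), which differed by more than the spread between replicates (exact permutation test, two-sided, p = 0.333). In the 3 width classes under 1000 bp, 29.1, 19.0 and 19.4% of the H3K27ac-lacking peaks touched H3K36me2 against 60.1, 52.5 and 47.8% of the others, and weighted to the same widths the others had 57.5%. The share was 14.3% for stand-alone peaks, 28.9% for flank peaks and 51.1% for the peaks outside H3K4me3. For peaks in both H3K9ac replicates it was 14.4%, against 52.3% of the others in both.

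H3K27me3 was rare but more frequent than at other H3K9ac peaks, mainly through the stand-alone peaks. Of the 654, 28 touched an H3K27me3 peak (4.28%, exact 95% interval 2.86 to 6.13%), beside 0.893% of all autosomal H3K9ac peaks and 0.779% of those with H3K27ac. H3K27me3 replicates 1 and 2 each gave 20 peaks, of which 12 were common to both. By replicate, 3.59% ± 0.226 of the H3K27ac-lacking intervals touched H3K27me3 against 0.518% ± 0.0512 of the others (SD, n = 2), a difference above the spread between replicates (exact permutation test, two-sided, p = 0.333). The shares were 1.99 and 0.235% under 300 bp, 7.36 and 0.723% from 300 to under 500 bp, and 16.7 and 1.55% from 500 to under 1000 bp, where the H3K27ac-lacking peaks number 36. Among peaks in both H3K9ac replicates, 20 of 201 (9.95%) touched H3K27me3, against 0.853% of the others. By kind, the share was 8.91% for stand-alone peaks, 0.974% for flank peaks and 2.27% for peaks outside H3K4me3. The share of the flank peaks was thus near the 0.893% of all autosomal H3K9ac peaks.

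**Figure D4:**
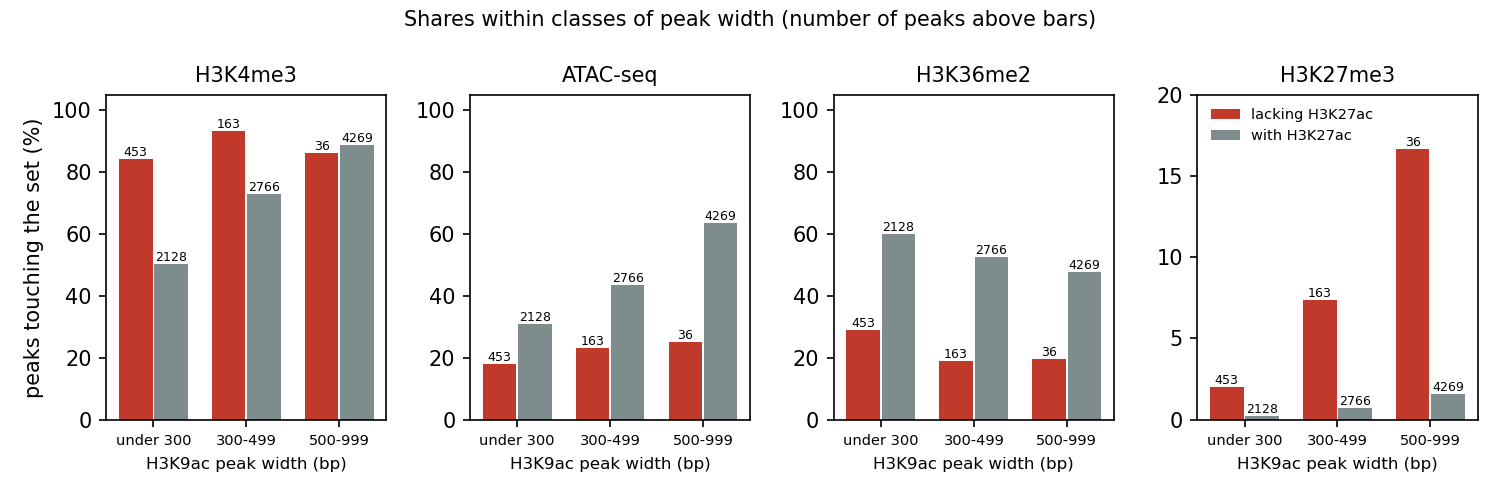
Percent of H3K9ac peaks that touch H3K4me3, ATAC-seq, H3K36me2 or H3K27me3 within 3 classes of peak width (bp), for peaks lacking H3K27ac (red) and with it (grey), with the number of peaks above each bar. The axis of H3K27me3 ends at 20%. Under 300 bp the red bar is higher for H3K4me3 (84.3 against 50.2%) and lower for ATAC-seq (18.1 against 30.8%).

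Of the 28 peaks with H3K27me3, 26 touched H3K4me3, which is near the share of 86.5% over all H3K27ac-lacking peaks. ATAC-seq was touched by 10 and H3K36me2 by 2, beside 19.9 and 26.1% over all H3K27ac-lacking peaks. The 28 peaks had a median width of 394.5 bp, against 251 bp over all H3K27ac-lacking peaks. H3K27me3 peaks contained 24 of the 28 whole, and 23 were stand-alone peaks. More than 1 kb from H3K27ac were 21, and the median gap was 44402.5 bp. Intervals of both H3K9ac replicates touched 20 of the 28, and 17 lay at gene ends. Over all H3K27ac-lacking peaks these shares were 30.7 and 60.4%.

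At Lhx2, the peak (619 bp, chr2:38339236-38339854) covered the start of the CpG-rich window printed above. H3K9ac intervals covered 609 bp of it in replicate 1 and 597 bp in replicate 2, H3K4me3 and H3K27me3 covered all 619 bp in each replicate, and H3K27ac, ATAC-seq and H3K36me2 covered none in any. The nearest H3K27ac peak was 51512 bp away. All 4 libraries of H3K4me3 and H3K27me3 thus had intervals over the whole peak.

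At Igsf11, the peak (462 bp, chr16:38902246-38902707) was covered by H3K9ac over 409 and 430 bp, by H3K4me3 whole in both replicates and by ATAC-seq over 244 and 269 bp. H3K27me3 covered all of it in replicate 1 and none in replicate 2. The peak in Nrep, a gene named for neuronal regeneration, had H3K9ac over 573 and 542 of 573 bp. It was covered whole by H3K4me3 and by H3K27me3 in both replicates, and by ATAC-seq over 492 and 540 bp. It therefore carried accessible DNA and H3K27me3 in every library of these assays.

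Whole coverage by H3K27me3 in both replicates was also found in Lrp4, the agrin co-receptor of the neuromuscular junction (516 bp), in Srcin1, a Src kinase inhibitor of neurons (513 bp), and in Gm20544 (491 bp). At Fgf11, a growth factor homologue, H3K27me3 covered all 604 bp in replicate 1 alone. Near Calb2, the calcium-binding protein calretinin (527 bp, 9214 bp from the gene), and near Tmem100, an endothelial membrane protein (437 bp), only replicate 2 had H3K27me3, over 527 and 308 bp. H3K4me3 covered each of these 6 peaks over at least 437 bp in both replicates.

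The widest H3K27ac-lacking peak of all (1465 bp, chr13:21159303-21160767) lay 17 bp from the tRNA gene n-TEctc11 and 120 bp from H3K27ac. H3K9ac covered 1111 and 1453 bp of it, H3K4me3 all of it in both replicates, H3K27me3 1097 and 897 bp, and ATAC-seq 50 bp in replicate 1 alone. The next widest of both H3K9ac replicates (916 bp, chr2:75642860-75643775) lay 4189 bp from Gm39859 and outside H3K4me3, with ATAC-seq over 224 and 201 bp. Among the 10 widest peaks of both replicates, it was the only one without H3K4me3. The others were at Smcr8, a partner of C9orf72 in autophagy (883 bp), Car14, a carbonic anhydrase (807 bp), Gm40167, Nol4l (694 bp), Tcn2, the vitamin B12 carrier transcobalamin (687 bp), Mcf2l (682 bp), Lgi1 (658 bp) and Eif3a, a translation initiation factor subunit (627 bp). At Smcr8, H3K9ac covered 326 and 584 bp, and H3K36me2 all 883 bp in both replicates.

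**Figure D5:**
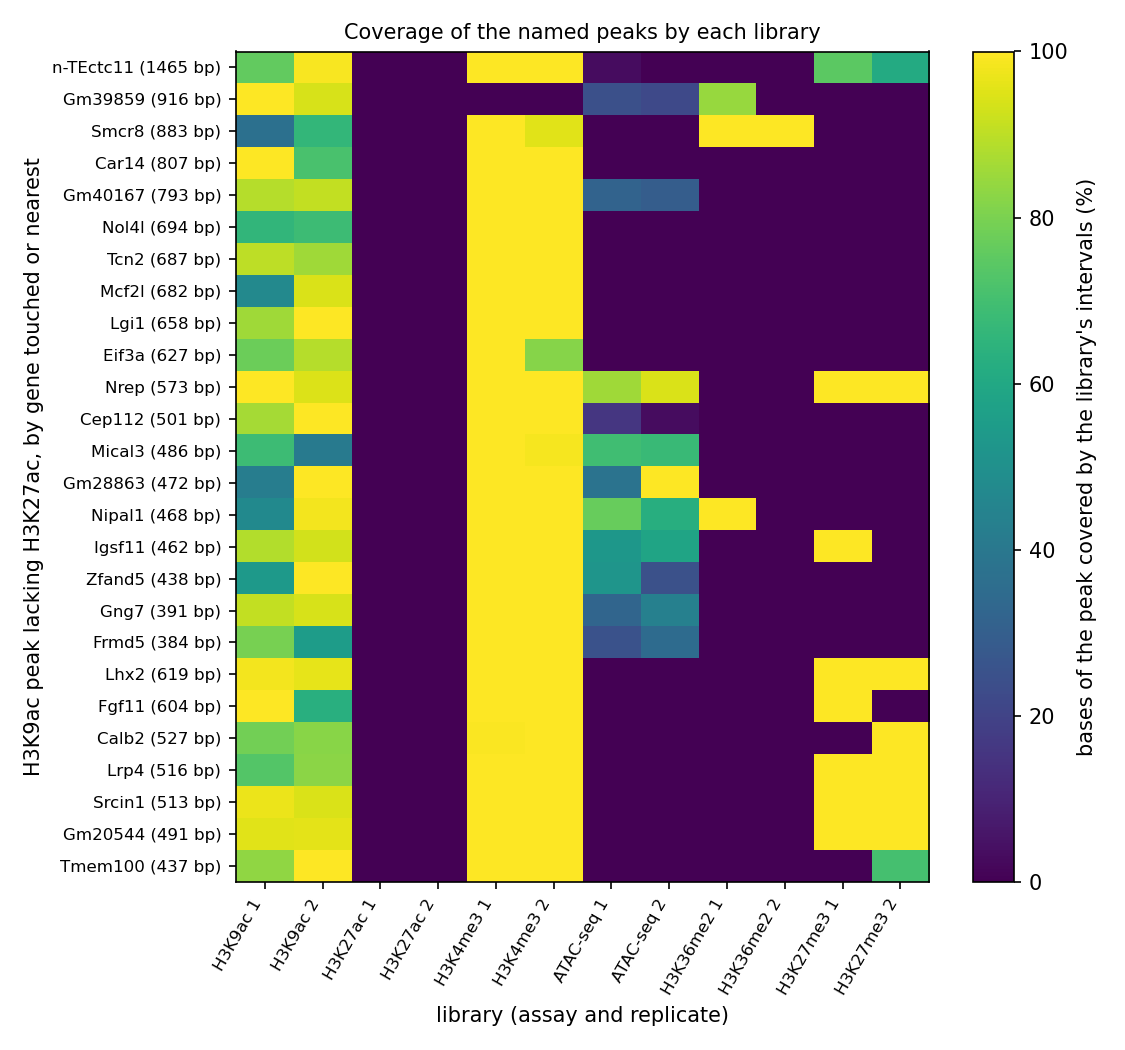
Percent of the bases of the widest H3K9ac peaks lacking H3K27ac, of those with H3K4me3 and ATAC-seq and of those with H3K27me3 (rows, by the gene it touches or lies nearest to, with its width) that is covered by the intervals of each of 12 libraries (columns). H3K27ac columns are at 0 by the choice of the peaks. H3K4me3 covers all or most of each row in both replicates but Gm39859, at 0, and H3K27me3 covers Lhx2, Nrep, Lrp4, Srcin1 and Gm20544 whole in both.

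By the combination of the 4 partner sets, 315 H3K27ac-lacking peaks (48.2%) touched H3K4me3 alone, against 9.46% of the other H3K9ac peaks. H3K4me3 with H3K36me2 followed with 116 peaks (17.7 against 9.80%) and H3K4me3 with ATAC-seq with 100 (15.3 against 33.5%). The combination of H3K4me3, ATAC-seq and H3K36me2 was found at 9 peaks (1.38%) and at 34.2% of the others. For 36 peaks (5.50%) no partner set was touched, and 8 of these were in both H3K9ac replicates.

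Positions at genes depended on the window counted. The window of a gene end reached 3 kb beyond the RefSeq gene and 2 kb into it, at each of its ends. Such a window was touched by 395 of 654 (60.4%, exact 95% interval 56.5 to 64.2%), beside 60.5% of all autosomal H3K9ac peaks and 60.5% of those with H3K27ac. With windows of 1 kb to either side of each gene end, the shares were 32.6% and, for the others, 52.5%. Peaks without H3K27ac within 1000 bp were at gene ends in 48.9% of cases against 60.7%. A further 173 (26.5%) lay in gene interiors and 86 (13.1%) in neither. By replicate the shares at gene ends were 62.4% ± 1.10 and 61.8% ± 0.247 (SD, n = 2), a difference below the larger of these SDs (exact permutation test, two-sided, p = 0.667). Weighted to equal widths, 32.2% of the other H3K9ac peaks were at gene ends. Flank peaks were at gene ends in 74.0% of cases, stand-alone peaks in 48.1% and peaks outside H3K4me3 in 48.9%.

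Annotated start sites themselves were seldom covered. A start lay inside 34 of 631 H3K27ac-lacking peaks (5.39%), beside 37.3% of all autosomal H3K9ac peaks, and the other H3K9ac peaks are wider. Of the 34, 31 were stand-alone peaks (12.4% of that kind), 3 were flank peaks, and 21 were in both H3K9ac replicates. H3K4me3 was touched by all 34, ATAC-seq by 9 and H3K27me3 by 4. The genes included Bcl3, a nuclear regulator of NF-κB, Flt4, the VEGF receptor of lymphatic vessels, Tle2, a Groucho corepressor, and Dlx2, a homeodomain factor of the forebrain, which were picked after the values were seen. The peaks measured 447 bp at Bcl3, 331 bp at Flt4, 366 bp at Tle2 and 314 bp at Dlx2, and that at Dlx2 was in a single H3K9ac replicate. H3K27me3 of replicate 1 covered all of the peak at Flt4, and ATAC-seq of replicate 2 covered 253 bp of that at Bcl3. Start sites of chromosome 18 were not used here, and 16456 of 20661 autosomal protein-coding genes had a start in the table.

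Measured from the midpoint, the nearest start was at a median distance of 1845 bp for flank peaks, 10001 bp for stand-alone peaks and 2735 bp for peaks outside H3K4me3. Within 5 kb of a start, 272 H3K27ac-lacking peaks lay downstream and 108 upstream (71.6% downstream), against 72.0% downstream for the other H3K9ac peaks. Flank peaks were downstream in 75.0% of cases and stand-alone peaks in 63.1%.

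Genes for tRNA were near 19 H3K27ac-lacking peaks (2.91%, within 1 kb), beside 0.838% of all autosomal H3K9ac peaks. The comparison of gene types was chosen after the data were seen. Under 300 bp, the shares were 2.87% of the H3K27ac-lacking and 0.235% of the other H3K9ac peaks. From 300 to under 500 bp, they were 1.84% (3 peaks) and 0.687%. Of the 19 peaks, 10 lay on chromosome 13, 17 touched H3K4me3, 6 ATAC-seq and 1 H3K27me3, and 7 were in both H3K9ac replicates. Protein-coding genes were within 1 kb of 74.0% of the H3K27ac-lacking peaks and 75.6% of the others, and long non-coding RNA genes of 13.8 and 16.8%.

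Per gene, 542 of 47038 autosomal genes (1.15%) had an H3K27ac-lacking peak at an end, and for 144 of them no other H3K9ac peak was there. Among protein-coding genes the numbers were 370 of 20661 and 90. Of 20 developmental transcription factors, 1 (Lhx2) had such a peak, and 4 had an H3K9ac peak with H3K27ac. At gene ends, none was found for 23 T lineage, 10 B lineage, 10 myeloid, 11 housekeeping and 9 acetyltransferase and deacetylase genes, where a share of 1.15% comes to fewer than 1 gene in any list. Gene bodies were not part of this count, and those of Runx1 and Tcf7 of the T lineage list held 2 H3K27ac-lacking peaks each and that of the myeloid gene Spi1 held 1, each in a single H3K9ac replicate, and 1.03% of all autosomal genes were touched by such a peak. These genes were named after their values were seen. H3K9ac peaks with H3K27ac were at 17 of the 23 T lineage, 2 of the 10 B lineage and 3 of the 10 myeloid genes. They were also at 10 of the 11 housekeeping and 9 of the 9 acetyltransferase and deacetylase genes. For comparison, 9906 of the 20661 protein-coding genes had an H3K9ac peak of either kind at an end.

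The reverse group, 9549 of 27594 autosomal H3K27ac peaks, which lack H3K9ac, had a median width of 352 bp. H3K4me3 was touched by 13.0% of them and by 86.5% of the H3K27ac-lacking H3K9ac peaks. ATAC-seq was touched by 16.9 and 19.9%, H3K36me2 by 75.7 and 26.1%, H3K27me3 by 0.230 and 4.28%, and gene ends by 25.2 and 60.4%. Intervals of both H3K27ac replicates touched 59.7% of the reverse group. Those of both H3K9ac replicates touched 30.7% of the H3K27ac-lacking peaks. Shares over all autosomal H3K27ac peaks are not given here, so what is particular to the reverse group cannot be told. The groups lay apart in H3K4me3, H3K36me2 and gene position and had close shares of ATAC-seq. No test of these differences was made, since peaks are not replicates.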

How the data were processed

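ChIP-seq for 5 histone marks and ATAC-seq of EL4 cells were used, 12 of 15 samples with 2 replicates per assay. Input and RNA-seq data are not used here. According to the labels and methods, the authors aligned reads to GRCm38 with STAR 2.5, kept unique alignments and used Picard against PCR bias. MACS2 gave the lists of H3K9ac, H3K27ac, H3K4me3 and ATAC-seq, and Epic those of H3K36me2 and H3K27me3. Input DNA was the control of each ChIP-seq list. The deposited lists give chromosome, start and end in bp for each replicate and no score, so a peak's strength cannot be weighed.

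Overlapping or adjoining intervals of a pair of replicates were joined, and autosomal H3K9ac peaks with no base in an H3K27ac peak were kept. Touching means at least 1 bp. Shares were computed for the merged sets, for each replicate, in width classes (limits 300, 500 and 1000 bp) and after weighting the other H3K9ac peaks to the width classes of the selected ones. Genes and strands are those of RefSeq on GRCm38.p6. Exact (Clopper-Pearson) 95% intervals and exact permutation tests over replicate values were used, and no test over peaks. The replicates are technical, so p-values measure only the spread between these libraries. Both sets of peaks of a replicate come from the same H3K9ac list and are paired by it, and differences within replicates were an alternative.

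The named peaks are the 10 widest in both H3K9ac replicates, the 10 widest with H3K4me3 and ATAC-seq in both replicates, the 10 widest with H3K27me3, 3 on either side of the limit, the 5 farthest from H3K27ac, and those at the genes of 6 lists. Peaks and lists were chosen with earlier results of these data known. Alternatives were other ways of combining replicates, left-out replicates, width, distance and overlap limits, midpoints, other chromosomes and other gene windows. Counting was checked against bedtools 2.31.1 in 11 comparisons, of which 0 differed, and on 20 simulated sets with 0 errors. Tools were Python 3.11.15, numpy 2.4.6, pandas 2.3.3, scipy 1.17.1 and matplotlib 3.10.9.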

Additional observations from a re-analysis of the deposited data

Results flagged for a closer look

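The selection was limited to autosomes, and H3K9ac peaks lacking H3K27ac were also present outside them. On chromosome X, 30 of 588 H3K9ac peaks lacked H3K27ac (5.10%, exact 95% interval 3.47 to 7.20%), with a median width of 257 bp. H3K4me3 was touched by 26 of them, ATAC-seq by 7, and 7 were in both H3K9ac replicates. On 13 unplaced scaffolds, 38 of 129 H3K9ac peaks did so (29.5%, exact 95% interval 21.8 to 38.1%), against 3.26% on the autosomes. Of these 38, with a median width of 246.5 bp, 26 touched H3K4me3, 0 touched ATAC-seq and 12 were in both H3K9ac replicates. The ATAC-seq, H3K36me2 and H3K27me3 lists hold no interval on these scaffolds. Both numbers were noted because they come from data the comparisons leave out, and the methods state that reads on chromosome X were discarded.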

How the results depend on the processing

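With the replicate block, added after the data were seen, the shares of both sets of peaks were compared within each H3K9ac replicate. The mean differences were -0.05 points for H3K4me3, -51.5 for ATAC-seq, -20.8 for H3K36me2, 3.08 for H3K27me3 and 0.606 for gene ends, as without pairing. The exact sign-flip p (two-sided) was 1 for H3K4me3 and 0.5, the smallest that 2 pairs allow, for the others. The difference for H3K4me3 was -0.42 in replicate 1 and 0.33 in replicate 2. Depth is unknown, so peaks missed at low depth cannot be told from sites without the mark. The share of ATAC-seq and of H3K36me2 was below, and that of H3K27me3 above, the share of the other H3K9ac peaks under all 14 alternatives for each. For H3K4me3 and for gene ends alike, it was above under 3 of 14 and below under 11, so these have no stable order.

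Keeping peaks of both H3K9ac replicates left 201 peaks, with 94.0% at H3K4me3, 25.4% at ATAC-seq, 14.4% at H3K36me2, 9.95% at H3K27me3 and 64.2% at gene ends. The intersection of replicates gave 680 peaks, with 93.8, 13.5, 9.41, 2.5 and 66.3% in this order. The other H3K9ac peaks then had 89.1% at H3K4me3 and 63.1% at gene ends. Merging intervals within 1000 bp left 273 peaks, with 80.2, 27.8, 20.9, 7.69 and 47.6%. The others then had 92.0% at H3K4me3 and 65.6% at gene ends. Peaks of at least 500 bp numbered 38, with 84.2, 26.3, 21.1, 18.4 and 65.8%. The others of this width had 96.1% at H3K4me3 and 69.9% at gene ends. Without H3K27ac within 1000 bp, 272 were left, with 82.0, 25.4, 19.5, 7.72 and 48.9%. The remaining H3K9ac peaks had 87.8% at H3K4me3 and 60.7% at gene ends. An overlap of at least 50% of the shorter interval moved H3K4me3 to 83.9% and ATAC-seq to 11.7%. Chromosome X and scaffolds moved H3K4me3 to 85.6%, H3K36me2 to 23.7%, H3K27me3 to 3.88% and gene ends to 57.2%. Peaks on scaffolds could not touch ATAC-seq, H3K36me2 or H3K27me3, whose lists hold no interval there. The 200 bp at the midpoint moved ATAC-seq to 17.6%, and that of the other H3K9ac peaks from 71.9 to 53.7%. H3K36me2 stayed at 26.1% there, and that of the others went from 53.5 to 42.0%. Gene ends came to 32.6% with windows of 1 kb, 49.1% with protein-coding genes and 46.9% with stranded start sites, against 52.5, 51.0 and 48.8% of the other H3K9ac peaks. Leaving out 1 replicate at a time gave 493 to 891 peaks, with 83.3 to 89.9% at H3K4me3, 14.7 to 22.2% at ATAC-seq, 20.03 to 27.3% at H3K36me2, 3.06 to 5.73% at H3K27me3 and 57.4 to 64.4% at gene ends. The cause of these shifts was not tested.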
